A study of Mus musculus with 42 samples.

Results

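Formative and primed epiblast genes are those that mouse pluripotent cells switch on as they leave the naive state of the blastocyst and take on the state of the epiblast after implantation. The set described here held 7 genes, Otx2, Fgf5, Pou3f1, Zic2, Zic5, Foxd3 and Grhl2, chosen by name and matched by symbol to the gene identifiers of the tables, and all 7 were among the 14296 genes measured. Poly-A RNA was sequenced from W9.5 embryonic stem (ES) cells, a mouse line of the 129X1/SvJ background, kept at low passage, which differentiated undirected as embryoid bodies after leukaemia inhibitory factor (LIF) was withdrawn. Cells were harvested every 6 h from 0 h to 120 h, and each of the 21 time points was represented by a library from either replicate, A and B, which made 42 libraries. The groups differed by time alone, so that no untreated course ran beside the differentiating one, and the 0 h cells served as the reference. The replicates were biological duplicate cultures of a single line, so a p-value measures the spread between 2 cultures and not between lines.

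In the naive state, ES cells express factors such as Klf4, Esrrb and Tfcp2l1, and withdrawing the signals that hold this state lets a formative and then a primed programme begin. Otx2, Pou3f1, Zic2, Zic5, Foxd3 and Grhl2 encode transcription factors of this transition, and Fgf5 encodes a secreted growth factor that has long served as the marker of primitive ectoderm. Several of them act again later, in the anterior brain (Otx2), the neural tube (Zic2, Zic5, Grhl2), myelinating glia (Pou3f1) and the neural crest (Foxd3).

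Between 10120972 and 51652434 reads were counted per library, with a median of 29692082, and 3 reads corresponded to between 0.057 and 0.316 CPM, the reads of a gene scaled to the library total. Levels below are log2 CPM, so that a difference of 1 is a doubling, and SD and SE are on the same scale. The ES cell label held at 0 h, where Pou5f1 stood at 9.88 and 10.08 log2 CPM in replicates A and B and Zfp42 at 9.13 and 9.24. In bulk RNA, fewer cells of a type and less RNA per cell cannot be told apart.

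RefSeq promoter windows, from 250 bases before to 50 bases after an annotated start on GRCm38.p6, were at hand for 4 of the 7 genes. They are shown for Fgf5 and Zic5, whose RNA rose and stayed high, for Foxd3, whose RNA fell below its starting level, and for the Otx2 start whose window held a match to the letters of its own family's site. Capitals mark a match to 1 of 7 motifs searched on both strands, and a window with no match is in lower case throughout.
Fgf5, chr5:98253934-98254233, plus strand: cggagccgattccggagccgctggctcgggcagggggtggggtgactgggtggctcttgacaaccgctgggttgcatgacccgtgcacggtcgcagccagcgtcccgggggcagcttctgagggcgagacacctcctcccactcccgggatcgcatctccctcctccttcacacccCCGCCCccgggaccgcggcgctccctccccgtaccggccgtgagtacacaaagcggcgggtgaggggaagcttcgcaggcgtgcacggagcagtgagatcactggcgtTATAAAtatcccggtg
Zic5, chr14:122465609-122465908, minus strand: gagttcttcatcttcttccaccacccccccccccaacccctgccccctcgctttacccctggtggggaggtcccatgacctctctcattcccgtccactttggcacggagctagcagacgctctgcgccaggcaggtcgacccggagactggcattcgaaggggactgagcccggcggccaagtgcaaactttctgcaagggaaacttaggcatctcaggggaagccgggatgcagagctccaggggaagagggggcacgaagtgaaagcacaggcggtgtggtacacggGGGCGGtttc
Foxd3, chr4:99656049-99656348, plus strand: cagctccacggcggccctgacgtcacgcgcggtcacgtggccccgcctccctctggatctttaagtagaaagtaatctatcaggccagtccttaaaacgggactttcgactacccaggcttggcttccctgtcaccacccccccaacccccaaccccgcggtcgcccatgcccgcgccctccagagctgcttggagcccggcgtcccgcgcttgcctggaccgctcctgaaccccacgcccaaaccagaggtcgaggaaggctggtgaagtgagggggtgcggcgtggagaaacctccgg
Otx2, chr14:48665060-48665359, minus strand: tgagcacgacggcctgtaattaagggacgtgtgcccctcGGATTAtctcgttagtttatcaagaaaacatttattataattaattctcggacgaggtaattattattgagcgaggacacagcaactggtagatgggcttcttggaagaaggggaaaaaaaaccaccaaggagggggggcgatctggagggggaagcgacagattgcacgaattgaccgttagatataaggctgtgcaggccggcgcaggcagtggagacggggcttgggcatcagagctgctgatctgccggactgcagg

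The motifs were the POU octamer (ATGCAAAT), an OTX site (TAATCC), a GRHL site (AACCGGTT), a ZIC site (CAGCAGG), the GC box (GGGCGG), the TATA box (TATAAA) and the CCAAT box (CCAAT), none of which contains another. The Fgf5 window held a GC box before the start and the TATAAA letters after it, within the transcribed part. The Zic5 window held a GC box, also after the start, and the Otx2 window printed held TAATCC before the start. The other 3 Otx2 starts held a TATA box, a CCAAT box and no match. Among all 32851 promoter windows, 35.66% held a GC box, 13.62% a TATA box, 37.41% a CCAAT box and 7.06% an OTX site. The octamer (1.74% of windows), the GRHL site (0.15%) and the ZIC site (10.51%) were found in none of the 7 member windows. The windows of Fgf5 (68.3% G or C, 29 CpG), Foxd3 (65.7%, 25 CpG) and Zic5 (62.7%, 15 CpG) lay above the median window (52.7%, 7 CpG). The 4 Otx2 windows ran from 41.7% to 53.7%.

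All 7 genes differed between time points (moderated F-test of limma over the 21 time points, called at adjusted p < 0.0001), with adjusted p from 4.49e-26 for Fgf5 to 6.17e-15 for Otx2. The same test called 74.6% of all genes, so that a difference somewhere in the course was common. Between 0 h and 48 h 6 of the 7 were called higher. Foxd3 also stood higher at 48 h, by 1.45, but missed the threshold (limma, adjusted p = 0.00109). The courses then parted: Fgf5, Zic2 and Zic5 stayed high, Otx2, Pou3f1 and Grhl2 came partway down, and Foxd3 fell below its starting level.

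**Figure D1:**
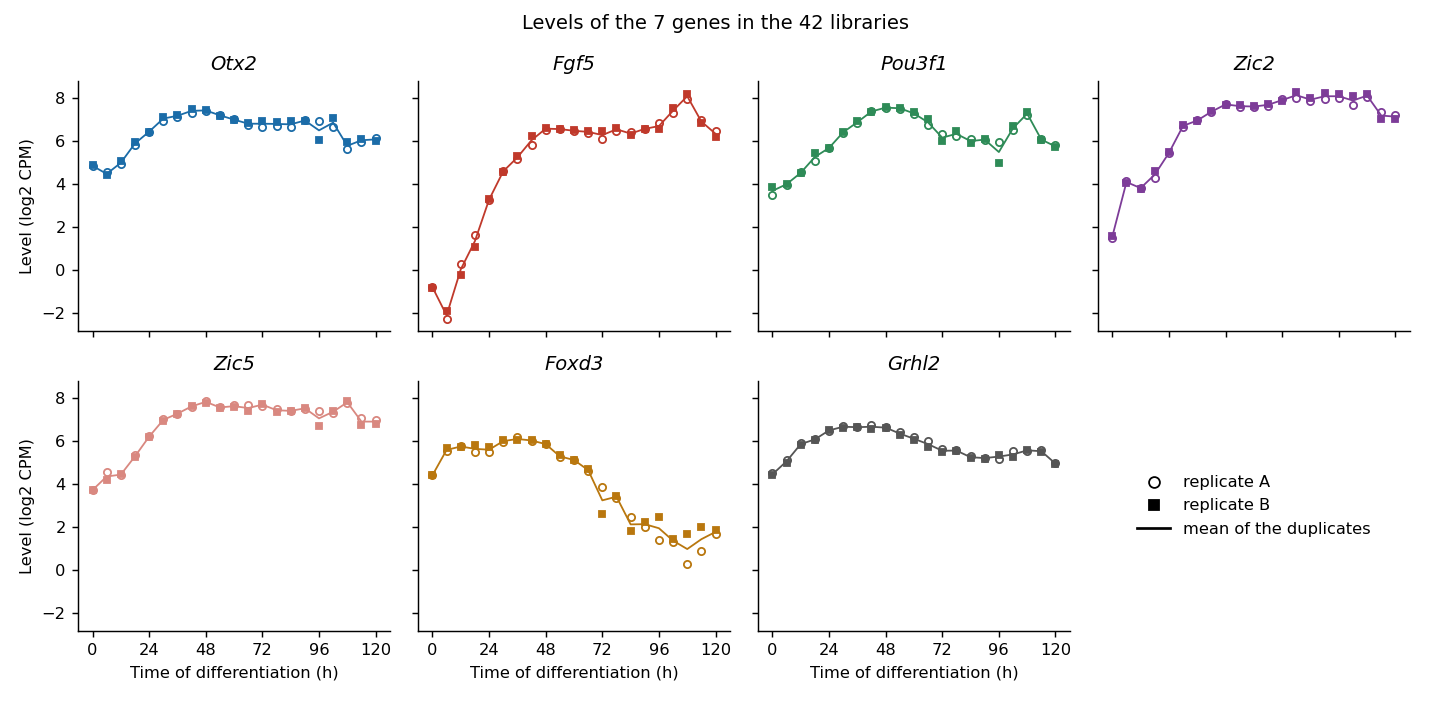
Level of each of the 7 genes (y axis, log2 CPM) against time of differentiation (x axis, h), with open circles for replicate A, filled squares for replicate B and a line through the mean of the duplicates. Fgf5 climbs from -0.82 to 8.08 at 108 h, and Foxd3 drops from a mean of 6.09 at 36 h to 0.96 at 108 h.

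Fgf5, the growth factor, is located at chr5:98254184-98277030 on the plus strand of GRCm38 (ENSMUSG00000029337.1). It stood at -0.81 log2 CPM in replicate A and -0.84 in replicate B at 0 h, and at -2.32 and -1.93 at 6 h. Those levels rest on 13 reads in each library at 0 h and on 5 and 4 reads at 6 h. It then reached 0.27 and -0.26 at 12 h, 3.24 and 3.29 at 24 h and 6.52 and 6.61 at 48 h. Both libraries of each of these time points lay above both of the one before. Fgf5 rose by 4.09 ± 0.18 (SE, n = 2 libraries per time point) from 0 h to 24 h and by 7.39 ± 0.18 from 0 h to 48 h (limma with Benjamini-Hochberg adjustment, adjusted p = 5.88e-16 and 3.38e-22). Because the 0 h level is so low, these sizes depend on the offset, and on a scale of log2(CPM + 1) they were 2.78 and 5.95. The dip from 0 h to 6 h, -1.31 ± 0.18 (adjusted p = 5.08e-07), was past the threshold, but not with voom precision weights, which give low counts less weight (limma, adjusted p = 0.0893), nor on the log2(CPM + 1) scale, where it was -0.36 (limma, adjusted p = 0.0347). Each step of 6 h from 6 h to 30 h was called for Fgf5, with changes of 2.13, 1.32, 1.94 and 1.32. The last of these, from 24 h to 30 h, only just passed the threshold (limma, adjusted p = 9.99e-05). Single steps after 6 h were not repeated under other settings.

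From 48 h to 96 h the level of Fgf5 stayed within a narrow band, between 6.10 and 6.84 over the libraries, and neither the change from 48 h to 72 h (-0.30 ± 0.18) nor that from 72 h to 96 h (0.42 ± 0.18) was called. It stood at 7.97 and 8.19 at 108 h, its highest point in each replicate. Fgf5 then fell by 1.18 ± 0.18 in the step to 114 h (limma, adjusted p = 3.34e-05) and stood at 6.46 and 6.19 at 120 h.

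Zic2, a zinc finger factor whose loss disturbs forebrain midline formation, is located at chr14:122475435-122479852 on the plus strand (ENSMUSG00000061524.8). Its levels were 1.49 and 1.59 at 0 h, 4.14 and 4.02 at 6 h, 5.42 and 5.47 at 24 h and 7.74 and 7.66 at 48 h. In the first 6 h alone it rose by 2.54 ± 0.13 (limma, adjusted p = 1.39e-14), from 66 and 72 reads to 484 and 277. No other member moved as far in that step. After a pause between 6 h and 18 h, 2 more steps were called, of 1.02 from 18 h to 24 h and 1.26 from 24 h to 30 h. The level then stayed between 7.59 and 8.26 from 48 h to 108 h. It came down at the end, to 7.22 and 7.03 at 120 h, a difference of -0.96 ± 0.13 from 96 h (limma, adjusted p = 8.04e-06) that was not called without replicate B of 96 h (adjusted p = 0.000327) or of 120 h (adjusted p = 0.000881).

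Zic5, of the same family, starts 9758 bp from Zic2 and is transcribed away from it on the minus strand, at chr14:122456795-122465677 (ENSMUSG00000041703.7). It was at 3.69 and 3.73 at 0 h, 4.53 and 4.16 at 6 h, 6.25 and 6.16 at 24 h and 7.85 and 7.78 at 48 h. The change from 0 h to 48 h was 4.10 ± 0.15 (limma, adjusted p = 1.88e-18), while that from 0 h to 6 h, 0.63 ± 0.15, missed the threshold (limma, adjusted p = 0.000561). Per kilobase of exon, Zic5 stood at 1.42 and Zic2 at 0.02 log2 CPM per kb at 0 h, and at 5.53 and 6.17 at 48 h, so that the order of the pair turned. The difference of Zic5 minus Zic2 in log2 CPM, whose change over time does not depend on length, was 2.20 and 2.14 at 0 h, 0.11 and 0.12 at 48 h and -0.50 and -0.91 at 78 h.

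Otx2, a homeodomain factor that redirects Pou5f1 to new enhancers in the formative state, is located at chr14:48657677-48673819 on the minus strand (ENSMUSG00000021848.9). It was already at 4.83 and 4.86 at 0 h, and stood at 4.53 and 4.39 at 6 h, 6.43 and 6.42 at 24 h and 7.41 and 7.44 at 48 h. The difference between 6 h and 0 h missed the threshold (-0.38 ± 0.17; limma, adjusted p = 0.0598). By 24 h it had risen by 1.58 ± 0.17 (limma, adjusted p = 1.94e-08) and by 48 h by 2.58 ± 0.17 (limma, adjusted p = 8.66e-13). The part of that rise from 24 h to 48 h, 0.997 ± 0.17 (limma, adjusted p = 4.69e-05), was close to the threshold and was not called when any 1 of its 4 libraries was left out, with adjusted p up to 0.00125. Otx2 stood at 6.66 and 6.94 at 72 h, a change of -0.62 ± 0.17 that was not called, and its libraries lay between 6.06 and 7.05 from 72 h to 102 h. It fell by 1.08 ± 0.17 in the step to 108 h (limma, adjusted p = 6.06e-05), the step in which Fgf5 reached its highest level, and ended at 6.14 and 5.99.

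Pou3f1, a POU factor also known as Oct6, is located at chr4:124656807-124660655 on the plus strand (ENSMUSG00000090125.2). Its level was 3.50 and 3.84 at 0 h, 5.66 and 5.69 at 24 h and 7.54 and 7.57 at 48 h, a gain over 0 h of 3.88 ± 0.18 (limma, adjusted p = 5.78e-16). It then came down to 6.33 and 5.98 at 72 h, where it had fallen by 1.40 ± 0.18 (limma, adjusted p = 1.01e-06). Without replicate B of 72 h the change was -1.22 and was not called (adjusted p = 0.000129). Pou3f1 stood at 7.21 and 7.33 at 108 h, close to its level at 48 h, and fell by 1.21 ± 0.18 in the step to 114 h (limma, adjusted p = 3.52e-05).

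Foxd3, a forkhead factor needed for the epiblast and the neural crest, is located at chr4:99656299-99658622 on the plus strand (ENSMUSG00000067261.3). Its level was 4.40 in both libraries at 0 h, then 5.52 and 5.65 at 6 h, 5.77 and 5.71 at 12 h, 5.47 and 5.72 at 24 h and 5.86 and 5.84 at 48 h. Both libraries of every time point from 6 h to 48 h lay above both at 0 h. The difference from 0 h to 6 h was 1.19 ± 0.36 and was not called over all 42 libraries (limma, adjusted p = 0.00634), where the SE of Foxd3 was the widest of the 7 genes. Its duplicates lay within 0.33 of each other up to 66 h and up to 1.36 apart from 72 h on. In a fit of only the 18 libraries from 0 h to 48 h, chosen after seeing the data, the same change was called (limma, adjusted p = 3.68e-07). With voom precision weights over all libraries, the changes from 0 h to 24 h and to 48 h were called (limma, adjusted p = 8.65e-05 and 4.87e-06).

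After 48 h Foxd3 went down at most time points. It stood at 5.23 and 5.33 at 54 h, 4.60 and 4.69 at 66 h, 3.85 and 2.60 at 72 h, 1.40 and 2.45 at 96 h, 0.28 and 1.64 at 108 h and 1.65 and 1.87 at 120 h. From 48 h to 72 h it fell by 2.62 ± 0.36 (limma, adjusted p = 2.42e-06), and the change was -1.999 without replicate B of 72 h (adjusted p = 0.000396). That call was also lost, with adjusted p of 0.000108 and 0.000102, without replicate A or B of 48 h. At 120 h Foxd3 was 2.64 ± 0.36 below 0 h (limma, adjusted p = 6e-07), the only member to end lower than it began. No further change was called from 72 h to 96 h (-1.30 ± 0.36) or from 96 h to 120 h (-0.17 ± 0.36).

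Grhl2, which keeps epithelial genes active in the formative epiblast, is located at chr15:37233036-37363569 on the plus strand (ENSMUSG00000022286.9). Its levels were 4.49 and 4.39 at 0 h, 5.12 and 4.98 at 6 h, 5.91 and 5.80 at 12 h, 6.48 and 6.49 at 24 h and 6.64 and 6.60 at 48 h. It was called in both of the first 6 h steps, with changes of 0.61 ± 0.10 and 0.81 ± 0.10 (limma, adjusted p = 8.69e-06 and 8.18e-07). The first was not called without replicate A of 6 h (adjusted p = 0.000711) or replicate B of 0 h (adjusted p = 0.000555), nor when values were scaled by library size alone (0.39; adjusted p = 0.00301). Between 24 h and 48 h the change was not called (0.14 ± 0.10, limma, adjusted p = 0.326). It fell by 1.08 ± 0.10 from 48 h to 72 h (limma, adjusted p = 3.87e-09), to 5.61 and 5.48, and stood at 4.95 and 4.93 at 120 h, 0.50 ± 0.10 above 0 h (limma, adjusted p = 0.000124).

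**Figure D2:**
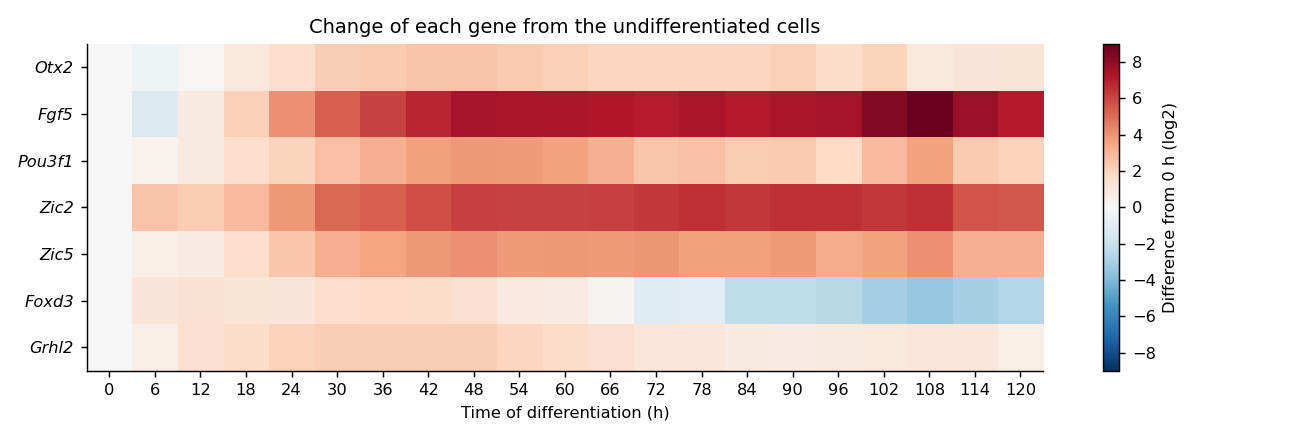
Difference of each gene's mean level from its level at 0 h (colour, log2, mean of duplicates) at each time point (x axis, h), with red for higher and blue for lower. Fgf5 and Zic2 show the deepest red, with a difference at 48 h of 7.39 for Fgf5 and 6.16 for Zic2, and Foxd3 turns from red to blue after 66 h.

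The genes differed in when they crossed the midpoint between their 0 h level and their highest mean. Foxd3 crossed it at 4.3 h and Grhl2 at 9.7 h, Zic2 at 20.4 h, Otx2 at 20.8 h, Zic5 at 21.1 h, Pou3f1 at 23.1 h and Fgf5 at 25.7 h. These times were interpolated between samples 6 h apart, so the last 5 lie within a single sampling interval of one another and their order is not settled. Highest means came at 30 h for Grhl2, 36 h for Foxd3, 48 h for Otx2, Pou3f1 and Zic5, 78 h for Zic2 and 108 h for Fgf5. The means first fell to 1 log2 unit below the 48 h level at 66 h for Foxd3, 72 h for Pou3f1 and Grhl2 and 108 h for Otx2, and never did for Fgf5, Zic2 and Zic5. In replicate B alone Otx2 and Zic5 first did at 96 h. These peaks were not all shared by the replicates. Grhl2 was highest at 42 h in replicate A and 36 h in replicate B, Otx2 and Foxd3 at 42 h in replicate B, Zic2 at 108 h in replicate A and Zic5 at 108 h in replicate B. With a running mean over 3 time points, the highest mean of Grhl2 came at 36 h and the midpoint of Foxd3 moved to 10 h.

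Across genes, the first contrast of 0 h with 6 h called 2 members higher (Zic2, Grhl2) and 1 lower (Fgf5), where it called 11.8% of all genes higher and 14.5% lower, counts that lie near this background. From 0 h to 24 h it called 6 of 7 higher, all but Foxd3, against 9.90% of all genes, and 0 lower against 12.8%. From 0 h to 48 h the same 6 were higher against 14.8%, and 0 were lower against 15.6%, with a median change of 3.88 over the members and 0.01 over all genes. From 24 h to 48 h the 5 members other than Foxd3 and Grhl2 were higher (background 5.27% higher, 3.70% lower).

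In later contrasts fewer members were called, and those called between 48 h and 120 h were lower. From 48 h to 72 h 3 members were lower, Pou3f1, Foxd3 and Grhl2, against 3.78% of all genes, and 0 were higher against 5.60%. From 72 h to 96 h 0 of 7 were called by limma, where 3.39% of all genes were called in either direction. At an unadjusted p under 0.05 5 of the 7 differed, and at an adjusted p under 0.05 4 did. The share of all genes at these looser thresholds was not computed, so these counts cannot be set against the 3.39%. From 96 h to 120 h 1 member, Zic2, was lower against 0.686%, with 1.25% of all genes higher. Over the whole course, from 0 h to 120 h, 5 members ended higher against 12.9% and Foxd3 lower against 10.1%.

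After 6 h, the single 6 h steps with member calls differed widely in their calls over all genes. In either direction these were 622 genes from 6 h to 12 h, 60 from 12 h to 18 h, 11 from 18 h to 24 h and 7 from 24 h to 30 h. Late in the course they were 292 from 102 h to 108 h and 246 from 108 h to 114 h. Later steps without a member call held at most 45, from 96 h to 102 h. The background of higher calls was 1.47% from 6 h to 12 h (Fgf5 and Grhl2 among them), 0.336% from 12 h to 18 h (Fgf5), 0.0769%, or 11 genes, from 18 h to 24 h (Fgf5 and Zic2) and 0.0280%, or 4 genes, from 24 h to 30 h (again Fgf5 and Zic2). From 102 h to 108 h 0.672% of genes were called lower, Otx2 among them. From 108 h to 114 h 0.734% were, or 105 genes, and these included Fgf5, Pou3f1, Zic2 and Zic5. Scaling by library size alone shifted the median change of all genes by -0.22 from 0 h to 6 h, -0.16 to 24 h, -0.20 to 48 h and 0.15 from 48 h to 72 h, and reversed no called change of a member.

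**Figure D3:**
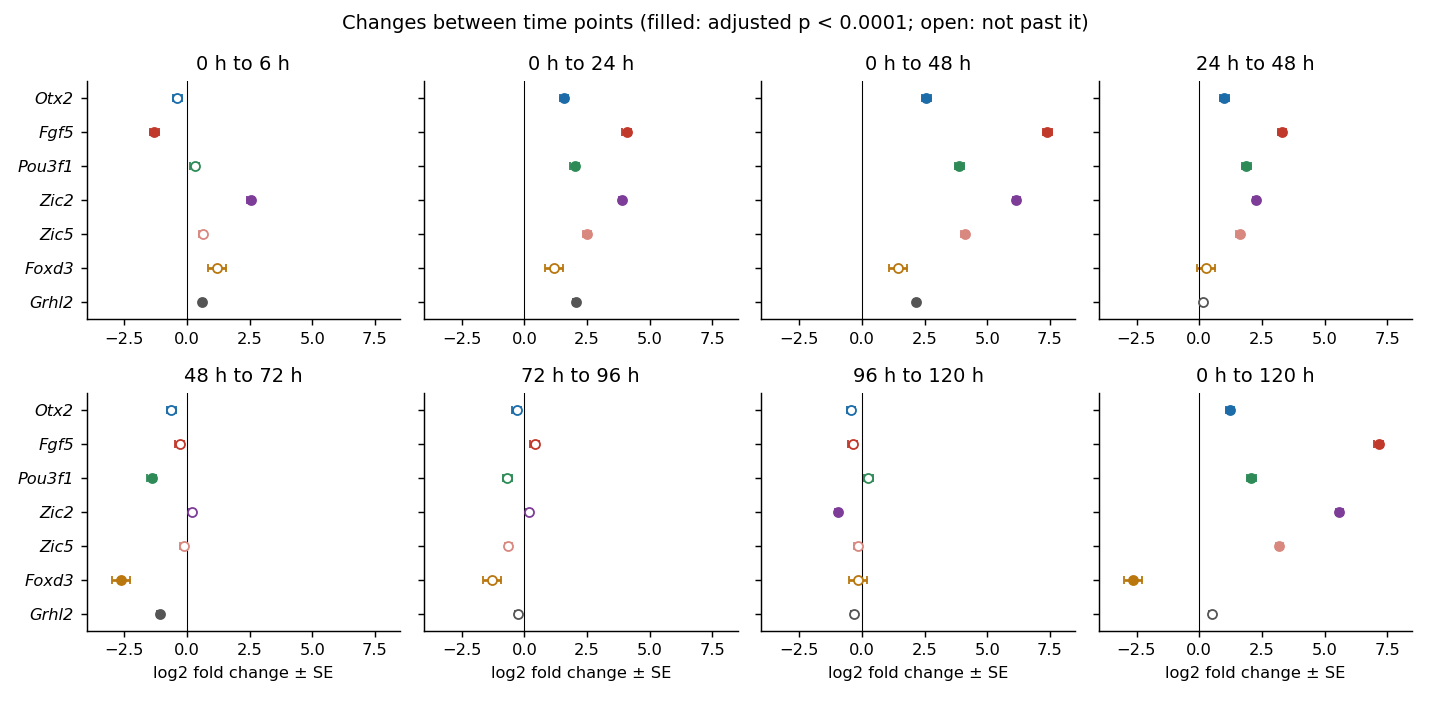
Change of each gene (x axis, log2 fold change later minus earlier, bars ± SE from the limma fit) in 8 comparisons of time points, filled where adjusted p was under 0.0001. Up to 48 h the called points lie to the right except Fgf5 at 6 h, and from 48 h to 72 h the 3 called points lie to the left.

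Compared per kilobase of exon, as log2 CPM per kb, Foxd3 was the highest of the 7 at 0 h (3.18 ± 0.00, SD of 2 libraries), above Otx2 (2.77 ± 0.02), and Fgf5 the lowest (-2.14 ± 0.02). Zic5 (1.42) and Grhl2 (1.34) did not differ beyond their spread. At 48 h Zic2 led (6.17 ± 0.06), followed by Pou3f1 (5.61), Zic5 (5.53), Otx2 (5.34) and Fgf5 (5.24), and then by Foxd3 (4.63) and Grhl2 (3.52). At 108 h Fgf5 (6.76 ± 0.15) and Zic2 (6.58 ± 0.11) were at the top, not apart beyond their spread, and Foxd3 (-0.25 ± 0.96) was last. The summed level of the 7 was 99.7 and 102.4 CPM at 0 h, 1050.9 and 1036.9 at 48 h, 974.8 and 1085.6 at 108 h and 523.9 and 466.3 at 120 h.

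Duplicates agreed least at 96 h, where the median SD of the members was 0.511 and that of all genes 0.288. Replicate A and B were at 6.93 and 6.06 for Otx2, 5.97 and 4.99 for Pou3f1, 7.41 and 6.69 for Zic5 and 1.40 and 2.45 for Foxd3, so that 3 genes were lower in replicate B and Foxd3 was higher. In the same libraries the 7 measured of 8 primitive streak genes listed summed to 122.7 CPM in replicate A and 557.9 in replicate B, with T at 5.69 and 7.83 log2 CPM and Eomes at 5.24 and 7.47. At 0 h that sum was 15.1 and 14.6 CPM. Other lists also differed between the 96 h libraries, with sums in replicates A and B of 763.9 and 1288.6 CPM for the 15 naive genes, 1646.4 and 2203.9 for the 6 general pluripotency genes, 35.2 and 56.2 for the 9 measured visceral endoderm genes and 24.2 and 9.3 for the 6 measured fibroblast genes. The part of these genes in the difference between the duplicates was not tested. Without replicate A of 96 h, the falls from 72 h to 96 h of Pou3f1 (-1.16; limma, adjusted p = 1.53e-06) and Zic5 (-0.996; adjusted p = 1.83e-06) were past the threshold. Without replicate B of 96 h, the change of Otx2 was 0.13 in place of -0.31.

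**Figure D4:**
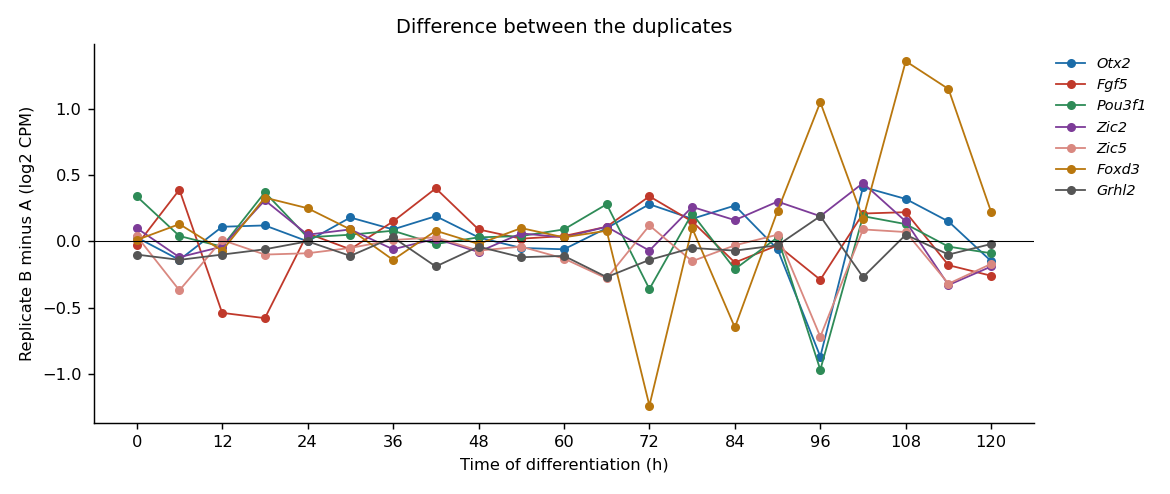
Replicate B minus replicate A (y axis, log2 CPM) of each gene at each time point (x axis, h). Up to 66 h the 7 lines lie between -0.58 and 0.40, at 72 h Foxd3 stands at -1.24, and at 96 h Otx2, Pou3f1 and Zic5 lie below 0 and Foxd3 lies above it.

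Pairs of members were described by Pearson's r over the time points, which share libraries and follow one another in time, so that no p is given. Over the 9 time points from 0 h to 48 h all 21 pairs were positive, from 0.637 for Fgf5 and Foxd3 to 0.993 for Otx2 and Fgf5. Over the 13 from 48 h to 120 h they ran from -0.504 for Fgf5 and Foxd3 to 0.864, reached by Foxd3 and Grhl2 and by Pou3f1 and Grhl2. The neighbours Zic2 and Zic5 had r = 0.966 over the whole course.

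Every gene averaging 0 log2 CPM or more, 12911 in all, was ranked by r with each member over the 21 means of duplicates. The 3 closest to Fgf5 were Gpm6a (0.990), Cysltr1 (0.986) and Mmp25 (0.985), and to Foxd3 Shmt1 (0.986), L1td1 (0.976) and Stk10 (0.972). Zic2 was most like Lrrk2 (0.980), 2610035F20Rik (0.971) and Nsmaf (0.969), and Zic5 most like Slc9a7 (0.978), Vrtn (0.976) and Nbea (0.969). For Otx2 they were 2810429I04Rik (0.966), Hps3 (0.965) and Tmem54 (0.947), for Grhl2 Insm1 (0.960), 5730480H06Rik (0.941) and Gspt1 (0.937), and for Pou3f1 Map3k5 (0.946), Trio (0.945) and Ube2k (0.943).

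Of these, 2610035F20Rik is a noncoding gene that starts 236 bp from Zic2 on the other strand, and 2 other members had a measured noncoding gene starting close by, chosen by position after their values were seen. Gm12688 starts 1316 bp from Foxd3 and Gm16136, whose annotated span covers the start of Grhl2 on the opposite strand, 273 bp from it. 2610035F20Rik was at -2.39 and -5.59 log2 CPM at 0 h, 4 reads and 0 reads, at 0.67 and 0.72 at 48 h and at 2.28 and 1.31 at 78 h, the time of the highest mean of Zic2. Gm12688 stood at 3.11 and 3.32 at 0 h and 2.11 and 2.30 at 6 h, a difference of -1.01 that was not called, beside 1.19 for Foxd3, and at 2.90 and 3.02 at 48 h and -1.45 and -0.95 at 108 h. Over the whole course its r with Foxd3 was 0.892. Gm16136 was at -0.35 and -1.34 at 0 h and 2.01 and 2.13 at 24 h, with r = 0.857 with Grhl2. The libraries were strand specific, but whether strand was used in counting is not given in the sources used here. It is therefore not known whether reads of the overlapping pair were told apart.

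**Figure D5:**
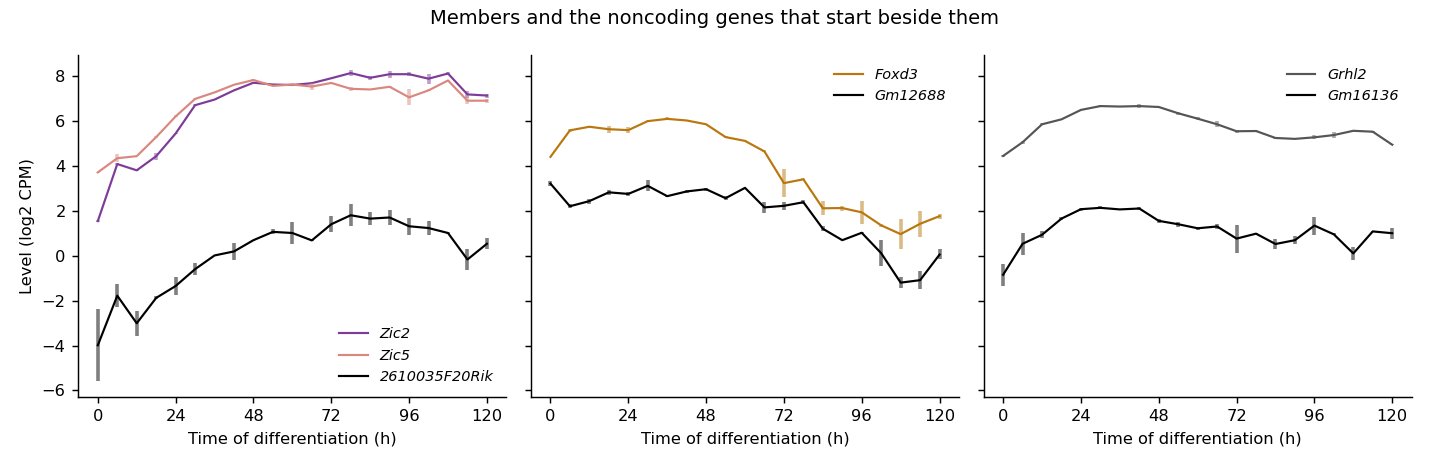
Mean level (y axis, log2 CPM) against time (x axis, h) of Zic2, Zic5 and 2610035F20Rik (left), Foxd3 and Gm12688 (middle) and Grhl2 and Gm16136 (right), with vertical bars spanning the duplicates. 2610035F20Rik has its highest mean at 78 h, as Zic2 does, but the replicates do not share this peak. In replicate A Zic2 was highest at 108 h (8.03), and in replicate B 2610035F20Rik was highest at 60 h (1.49). Gm12688 declines after 60 h, by which time Foxd3 had already fallen from 5.85 at 48 h to 5.11.

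Other genes of the transition were counted from lists. Of 20 further formative or primed genes listed, 13 were higher (14.8% of all genes) and 0 lower at 48 h than at 0 h, with a median change of 2.04, led by Lef1 (5.98), a Wnt effector, Sox3 (5.20), a neural and epiblast factor, and Cdh2 (4.90), the N-cadherin gene. From 48 h to 72 h 10 were lower (3.78% of all genes) and 0 higher, with a median change of -0.87, led by Etv4 (-2.22) and Tcf15 (-2.19), transcription factors, and Lef1 (-2.13). Of 15 naive genes, 12 were lower (15.6% of all genes) and 0 higher from 0 h to 48 h, with a median change of -2.30, led by Tcl1 (-5.48), Klf4 (-5.25) and Tbx3 (-4.42). From 96 h to 120 h 5 of the 15 were higher (1.25% of all genes), led by Dppa3 (2.63), Klf4 (1.99) and Prdm14 (1.85), while of the members only Zic2 was called.

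Of 17 relatives of the members in their gene families, 9 were measured, and 3 of these were higher from 0 h to 48 h, Zic1 (5.34), Fgf8 (3.15) and Fgf15 (2.16), while Grhl3 was lower (-2.84) and the median change of the 9 was 0.26. Otx1 (-0.70) was not called. Of 15 epithelial genes, the class of targets Grhl2 is known for, 4 were higher and 3 lower from 0 h to 48 h, with a median change of 0.63, near the 14.8% and 15.6% of all genes. The largest were Esrp1 (2.87), a splicing regulator, and Cldn4 (-1.25), a tight junction gene, and no epithelial gene was called lower from 48 h to 72 h, where Grhl2 fell and 4 of the 15 rose, against 5.60% of all genes.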

How the data were processed

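The members and the gene lists were chosen with earlier results of these data known. Per the authors' methods and the labels, reads were trimmed with Trim Galore, aligned to mm10 with TopHat2 and counted with HTSeq on GENCODE vM2 genes, then scaled with edgeR and transformed with voom. Versions are not given in the sources used here. The deposited values are log2 CPM with an offset of 0.5 reads, 1 file per library. Whole reads were recovered from them, to within 2.84e-08 of a read, and voom on these returned the deposited values to within 5.51e-14. Identifiers were matched to GENCODE vM21 on GRCm38, which gave a symbol to 14177 of 14296 genes and none to 119.

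Contrasts were tested with limma 3.58.1 in R 4.3.3 (lmFit and eBayes with a trend) on the deposited log2 values, with a factor of 21 time points over all 42 libraries, which left 21 residual degrees of freedom. p-values were adjusted by Benjamini-Hochberg over all genes within a contrast and called at adjusted p < 0.0001. The scripts were tested on simulated data. Named beside the members were up to 3 called genes of largest change per list and comparison, and for each member the 3 genes with the highest r. Lists for neural, neural crest, visceral endoderm and fibroblast genes and for general pluripotency were counted as well. Python 3.11.15 was used for tables and matplotlib 3.10.9 for figures. Values after ± are the SE of the limma fit for changes and the SD of duplicates for levels. Both rest on the spread between duplicates, while the CPM of 3 reads reflects counting alone. Alternatives changed the weights, trend, filter, pseudocount, scaling, correction, threshold, block and samples.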

Additional observations from a re-analysis of the deposited data

How the results depend on the processing

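Of the 30 called changes of single members in the 8 comparisons, 14 of 320 repeats under other settings and 12 of 120 with a library left out missed the threshold, and none reversed. Not all of these other settings could have given a different result. The looser threshold of adjusted p < 0.05 could not lose a call. That threshold, the replicate block, the filter, the correction over the 8 comparisons and the fit without a trend left each change the same. So did fits of only the 4 or 18 libraries, so none of these could show a reversal. Among the other settings, only precision weights, log2(CPM + 1) and the scalings could. At adjusted p < 0.05, 5 members changed from 0 h to 6 h, 4 from 72 h to 96 h and 2 from 96 h to 120 h. The share of all genes at that threshold was not computed. With only the 4 libraries of a comparison, 0 members were called from 48 h to 72 h and 0 from 96 h to 120 h. With a library left out, the lone duplicate being assumed to vary like the others, the members called ranged from 1 to 3 from 48 h to 72 h (1 without replicate B of 72 h), from 0 to 2 from 72 h to 96 h (2 without replicate A of 96 h) and from 0 to 1 from 96 h to 120 h (0 without replicate B of 96 h or of 120 h). Uncalled changes that turned direction were Zic5 from 48 h to 72 h (0.019 by library size alone and 0.12 after quantile normalization) and, over left-out libraries, Otx2 from 72 h to 96 h (-0.75 to 0.13) and from 96 h to 120 h Otx2 (-0.86 to 0.01), Zic5 (-0.51 to 0.21), Pou3f1 (-0.23 to 0.75) and Foxd3 (-0.69 to 0.36). The r of Pou3f1 and Foxd3 was -0.016, and 0.031 in replicate B. The causes were not tested.

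The letters A and B name the duplicate courses. Deviations from the time point means correlated between same-letter libraries at 0.119 on average (210 pairs of time points, lowest -0.437, highest 0.653). Of these pairs 56.2% were over 0.1. Because not all pairs were, the main fit did not pair libraries by letter, although the average lay above 0. A replicate block by letter called 4291 genes in place of 3762 from 0 h to 6 h, and 378 in place of 277 from 96 h to 120 h. With the letter as a replicate block, Grhl2 from 0 h to 120 h was called (0.50; limma, adjusted p = 1.47e-05), and no other member call changed. The dip of Fgf5 from 0 h to 6 h was also not called after quantile normalization (adjusted p = 0.000322), with the 4 libraries alone (0.0266) or with the 18 libraries up to 48 h (0.000101), and the rise of Otx2 from 24 h to 48 h was not called without a trend (0.000137), by library size alone (0.000131) or after quantile normalization (0.000663), all by limma. Depth limits Fgf5 at 0 h and 6 h, where few reads were counted.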

Other observations

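Genes of other fates were also counted. From 0 h to 120 h, 5 of 7 measured primitive streak genes, 5 of 6 neural genes, 4 of 6 neural crest genes and 4 of 9 visceral endoderm genes were higher and 0 of each were lower (limma, adjusted p < 0.0001), where 12.9% of all genes were higher and 10.1% lower. From 0 h to 6 h, 3 of 6 neural and 2 of 6 neural crest genes were called higher, against 11.8% of all genes. By 24 h 2 of 6 in each list were higher than at 0 h, against 9.90%. Median changes of the neural and neural crest lists were 1.94 and 0.94 at 6 h and 1.04 and 0.63 at 24 h. Whether the early calls were part of the later rise was not tested. From 0 h to 120 h 4 of 6 fibroblast genes were higher and 1 lower, and of 6 general pluripotency genes 1 was higher and 3 lower. The 6 measured neural genes summed to 18.3 and 14.9 CPM at 0 h, 356.0 and 329.3 at 108 h and 204.2 and 189.6 at 120 h. Such a sum follows its most abundant genes. Sox1, a neural factor, stood at 3.62 and 1.96 log2 CPM at 96 h in replicates A and B and at 4.92 and 4.77 at 102 h. The mean of Sox1 was 5.42 at 108 h and 5.56 at 120 h, and that of Pax6 0.40 and 0.96, so neither came down with the sum. Nanog was at 8.79 and 8.98 at 0 h, 6.95 and 7.06 at 48 h and 8.46 and 8.41 at 120 h. Sox17, Afp, Ttr, Apoa1 and Cer1 were not analysed here.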
